A study of Homo sapiens with 6 samples.

Results

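The genes described here carry out mRNA deadenylation, decapping and decay, and they were followed in HCT116 cells given miR-224. They are a list of 45 genes chosen by function, of which 44 were measured among 19775 genes in all. The list was made with earlier results of these data known, so its shares beside those of all genes are description only. PABPC4, a cytoplasmic poly(A)-binding protein gene, was not analysed here. Each gene was read by the probe set annotated with only its symbol that was brightest by the mean over all 6 arrays, so that this mean chose the probe set and is no finding. HCT116 is an established human colon carcinoma line. The miR-224 cells received precursor molecules of miR-224 and the control cells received control oligos, each at 50 nM, and were harvested for total RNA at 24 h. Each group had 3 Affymetrix expression arrays. One miR-224 and one control array came from each of 3 experiments, called experiments 1, 2 and 3 after the numbers in the sample titles. The question put to the decay genes is whether their transcripts differed between miR-224 cells and control cells of the same experiment.

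A cytoplasmic mRNA is usually taken apart in steps. Its poly(A) tail is first trimmed by the PAN2-PAN3 and CCR4-NOT deadenylases, after which either the cap is removed by DCP2 and the body is degraded from the 5′ end by XRN1, or the exosome degrades it from the 3′ end. MicroRNAs use the same machinery: Argonaute proteins bring TNRC6 proteins to a target mRNA, and these recruit the deadenylases, with decapping to follow.

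The sequences of miR-224 are shown because the cells were given this microRNA. The labels name a precursor and not an arm, so both mature arms are given as RefSeq lists them on GRCh38.p14, with the seed, bases 2 to 8, in capitals.
hsa-miR-224-5p: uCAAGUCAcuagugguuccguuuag
hsa-miR-224-3p: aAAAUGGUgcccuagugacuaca
The 5p arm lies at chrX:151958628-151958652 and the 3p arm at chrX:151958584-151958606, both on the minus strand. Matches to these seeds in the decay mRNAs were not analysed here.

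Experiment 1 stood apart from experiments 2 and 3 on both of its arrays. The control probe set for the 5′ end of actin read 4.14 on the miR-224 array and 4.42 on the control array of experiment 1, and 12.3 to 12.5 on the other 4 arrays, while the one for the 3′ end read 12.4 to 12.5 on every array. For the 5′ end of actin, the difference between miR-224 and control was -0.28, 0.15 and 0.22 in experiments 1, 2 and 3. The 5′ end of GAPDH read 4.39 on the miR-224 array and 3.80 on the control array of experiment 1, and 13.0 on the other 4 arrays, with differences of 0.58, 0.03 and -0.02, so that the 2 transcripts differed in opposite directions in experiment 1. The part of this signal in the results below was not tested. Markers of colon epithelium fitted the label, with 9 of 10 at or above the median level of all genes (4.75) and KRT18 at 12.3, whereas 1 of 20 measured markers of fibroblasts, leukocytes, endothelium, neurons and muscle reached that median. In RNA of whole cultures, a difference in some cells and a smaller one in all cells cannot be told apart. Precision is limited by the 3 pairs of arrays.

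DCP2, which encodes the enzyme that removes the mRNA cap, had the largest difference among the 44 genes and stood at 0.486 times its control level in the miR-224 cells. TOB2, an adaptor of the CCR4-NOT deadenylase, stood at 0.650 times and PAN2, the catalytic subunit of the PAN2-PAN3 deadenylase, at 0.759 times, and each of these 3 was lower in all 3 experiments. Most other decay genes lay close to 0, with a median log2 difference of -0.007 over the 44 genes, against 0.01 over all genes. No decay gene passed the test. limma with experiment as a block called 0 of 44 at an adjusted p under 0.05, the lowest being 0.14 for DCP2, and 0 of all genes, a background of 0.0%. At an unadjusted p under 0.05, 5 decay genes were lower (11.4%, against a background of 5.52% of all genes) and 2 were higher (4.55%, against 5.45%). All the decay genes reached the median level, and over the 9888 genes that did so these backgrounds were 8.1% and 4.78%. Without the block, limma again called 0 of 44 and 0.0% of all genes. In that fit 1 of the 44 decay genes, PAN2, had an unadjusted p under 0.05, as did 313 of the 19775 genes. A difference of at least 0.5 in size was found in 2 of the 44 (4.55%, against 1.48% of all genes), DCP2 and TOB2. For this size, the share over the 9888 genes that reached the median level was not computed.

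The difference had the same sign in all experiments for 17 of the 44 genes. Lower in every experiment were 10 of them (22.7%, against 14.4% of all genes), namely DCP2, DCP1A, LSM4, XRN1, PAN2, PAN3, CNOT4, TOB2, PARN and EXOSC6. Higher in every experiment were 7 (15.9%, against 18.3%), namely LSM3, LSM7, CNOT6, CNOT8, EXOSC2, EXOSC9 and EXOSC10. Over the 9888 genes that reached the median level, the shares were 18.8% lower and 16.5% higher, so both counts were near that background. The experiments differed from each other in this respect. In experiment 3, 31 of 44 decay genes were lower (70.5%, against 56.7% of genes at or above the median level), compared with 18 in experiment 1 (40.9%, against 43.5%) and 22 in experiment 2 (50.0%, against 54.0%). The median over the decay genes was 0.07, -0.004 and -0.10 in experiments 1, 2 and 3.

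**Figure D1:**
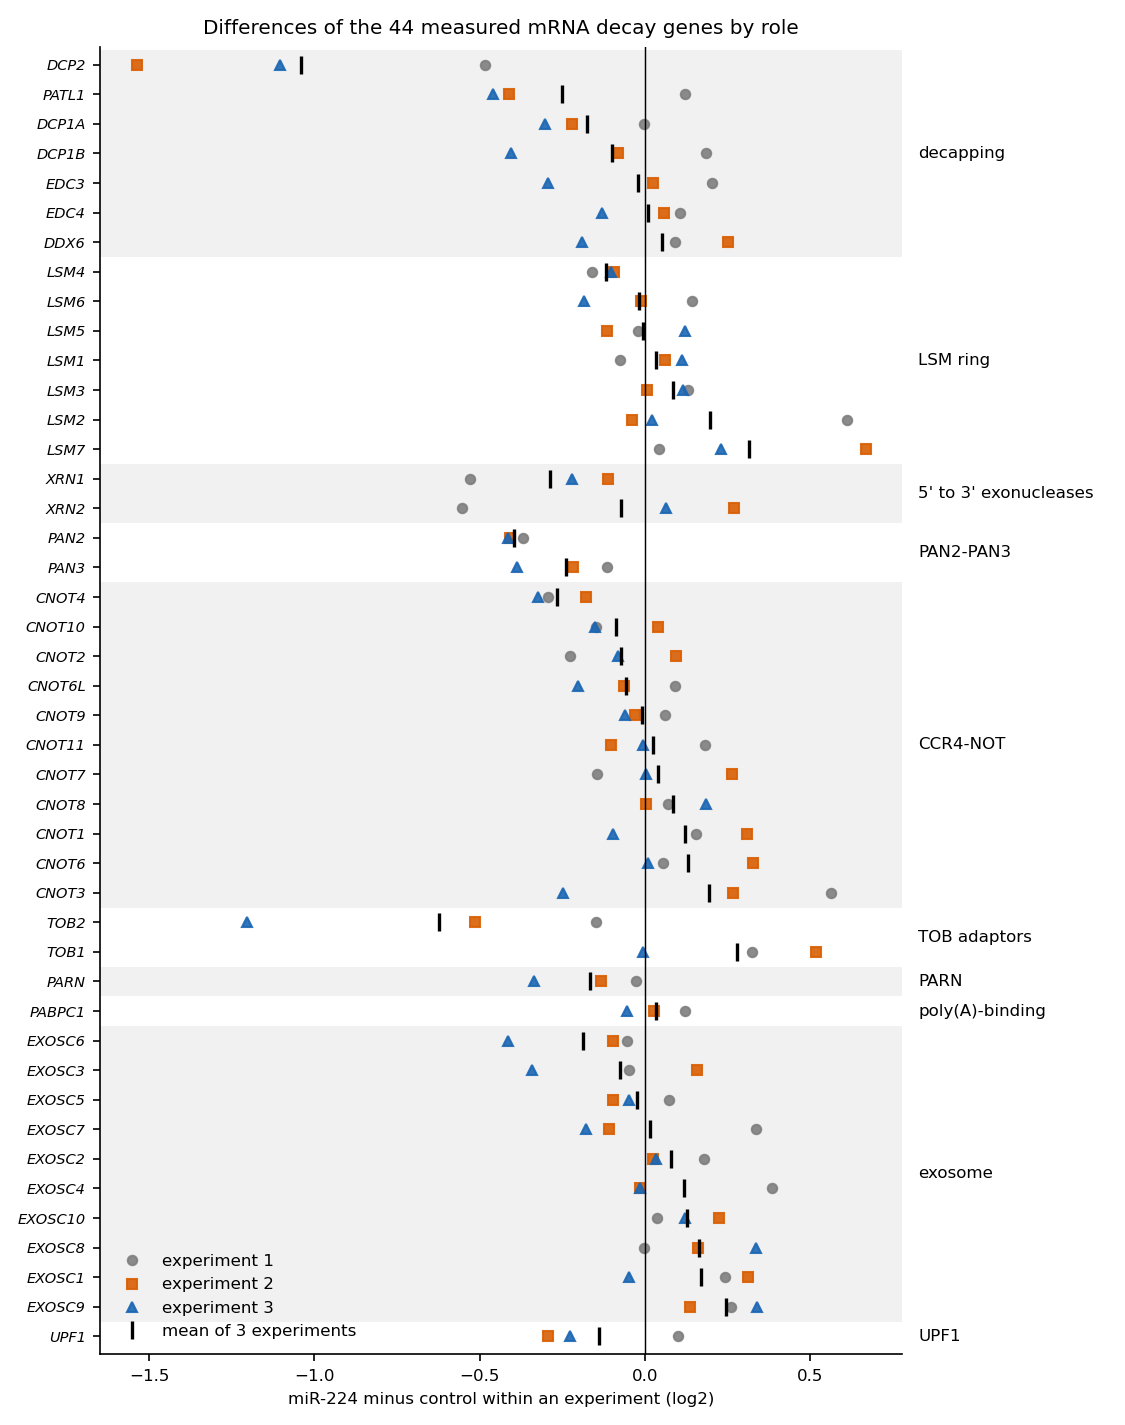
Log2 difference between miR-224 and control cells (horizontal axis) for each of the 44 measured decay genes, grouped by role, with a point for each experiment and a black bar for the mean of 3. DCP2 and TOB2 lie furthest to the left, the 3 points of PAN2 almost coincide, and 27 genes have points on both sides of 0.

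Among the decapping genes, DCP2 read 7.88, 6.75 and 5.97 on the miR-224 arrays of experiments 1, 2 and 3, against 8.36, 8.29 and 7.07 on the control arrays (RMA log2 level, probe set 212919_at). Each miR-224 array was below the control array of its own experiment, but the groups overlapped, since the control array of experiment 3 lay below the miR-224 array of experiment 1. The log2 difference was -0.49, -1.54 and -1.10 in experiments 1, 2 and 3, and -1.04 ± 0.17 over them (SE, n = 3 pairs, 95% interval -1.43 to -0.65, limma adjusted p = 0.14). The call depended on the variance model and on experiment 1. When the blocked fit let the variance follow the intensity and made it robust to outliers, DCP2 was lower at an adjusted p of 0.015, in a fit that called 0.207% of all genes as lower and 1 of the 44 decay genes. With experiments 2 and 3 alone, DCP2 differed by -1.32 at an adjusted p of 0.0024, in a fit that leaves 1 residual degree of freedom and called 0.743% of all genes as lower, with 2 of the 44 decay genes, DCP2 and TOB2. Over the 10 alternatives tried, the adjusted p of DCP2 ran from 0.0024 to 0.9999, the highest being without the block.

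The activators of DCP2 showed smaller differences. DCP1A, which binds DCP2 and stimulates it, read 7.89, 7.41 and 7.15 on the miR-224 arrays, against 7.89, 7.64 and 7.45 on the control arrays. It was level in experiment 1, where the difference was -0.002, and lower in the others, by -0.22 and -0.30 in experiments 2 and 3. Its mean difference was -0.17 ± 0.11 (SE, n = 3 pairs, limma adjusted p = 0.61) and -0.11 without experiment 3. A second bright probe set of DCP1A gave -0.21. Its paralog DCP1B stood at 0.19, -0.08 and -0.41 in experiments 1, 2 and 3, and PATL1, which links the LSM ring to the decapping enzyme, at 0.12, -0.41 and -0.46. Both were higher in experiment 1 and lower in experiments 2 and 3. The scaffold proteins EDC3 (-0.02 ± 0.12) and EDC4 (0.01 ± 0.11) and the helicase DDX6 (0.05 ± 0.12), which promotes decapping and represses translation, had mean differences near 0, with 95% intervals that together ran from -0.30 to 0.32.

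The LSM proteins form a ring that binds the shortened 3′ tail of an mRNA and favours decapping. LSM7 read 10.3, 10.1 and 9.92 on the miR-224 arrays, against 10.3, 9.40 and 9.69 on the control arrays. Its difference of 0.31 ± 0.13 (SE, n = 3 pairs, limma adjusted p = 0.44) came mainly from experiment 2 (0.67), and without that experiment it was 0.14. LSM3 was higher and LSM4 lower in every experiment, by 0.08 ± 0.10 and -0.12 ± 0.10 on average. LSM2 was higher by 0.61 in experiment 1 and stood at -0.04 and 0.02 in experiments 2 and 3. The remaining members, LSM1, LSM5 and LSM6, lay between -0.02 and 0.03, and the median of the 7 was 0.03.

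XRN1, the exonuclease that degrades decapped mRNA in the cytoplasm, read 6.41, 6.33 and 5.91 on the miR-224 arrays, against 6.94, 6.44 and 6.13 on the control arrays. It was lower in each experiment, most in experiment 1 (-0.53, against -0.11 and -0.22 in experiments 2 and 3), and the groups overlapped. The mean was -0.29 ± 0.12 (SE, n = 3 pairs, limma adjusted p = 0.42), and -0.17 without experiment 1. Another bright probe set of XRN1 gave 0.05, so the direction rests on the probe set used. XRN2, the related exonuclease that acts mainly in the nucleus, stood at -0.55, 0.27 and 0.06 in experiments 1, 2 and 3.

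PAN2 (probe set 203117_s_at) had the most even difference of the 12 genes followed array by array. An earlier result of these data had already named PAN2, so its values here are no independent finding. It read 5.08, 5.08 and 5.11 on the miR-224 arrays of experiments 1, 2 and 3, against 5.45, 5.49 and 5.53 on the control arrays. All miR-224 arrays lay below all control arrays, which held for 1 of the 44 decay genes (2.27%) and for 2.11% of all genes, while the reverse order was found in 0 of the 44 and in 4.16% of all genes. The difference was -0.37, -0.41 and -0.42 in experiments 1, 2 and 3, and -0.40 ± 0.10 over them (SE, n = 3 pairs, 95% interval -0.63 to -0.17, limma adjusted p = 0.24). It ranged from -0.41 to -0.39 with single experiments left out. PAN2 had the lowest mean level of the 44 probe sets (5.29), which is near the median of all genes, and a single probe set. PAN3, which brings PAN2 to poly(A)-binding protein and to TNRC6 proteins, read 7.73, 7.45 and 7.01 on the miR-224 arrays, against 7.84, 7.67 and 7.40 on the control arrays. It was lower in each experiment, with a mean of -0.24 ± 0.11 (SE, n = 3 pairs, limma adjusted p = 0.46).

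**Figure D2:**
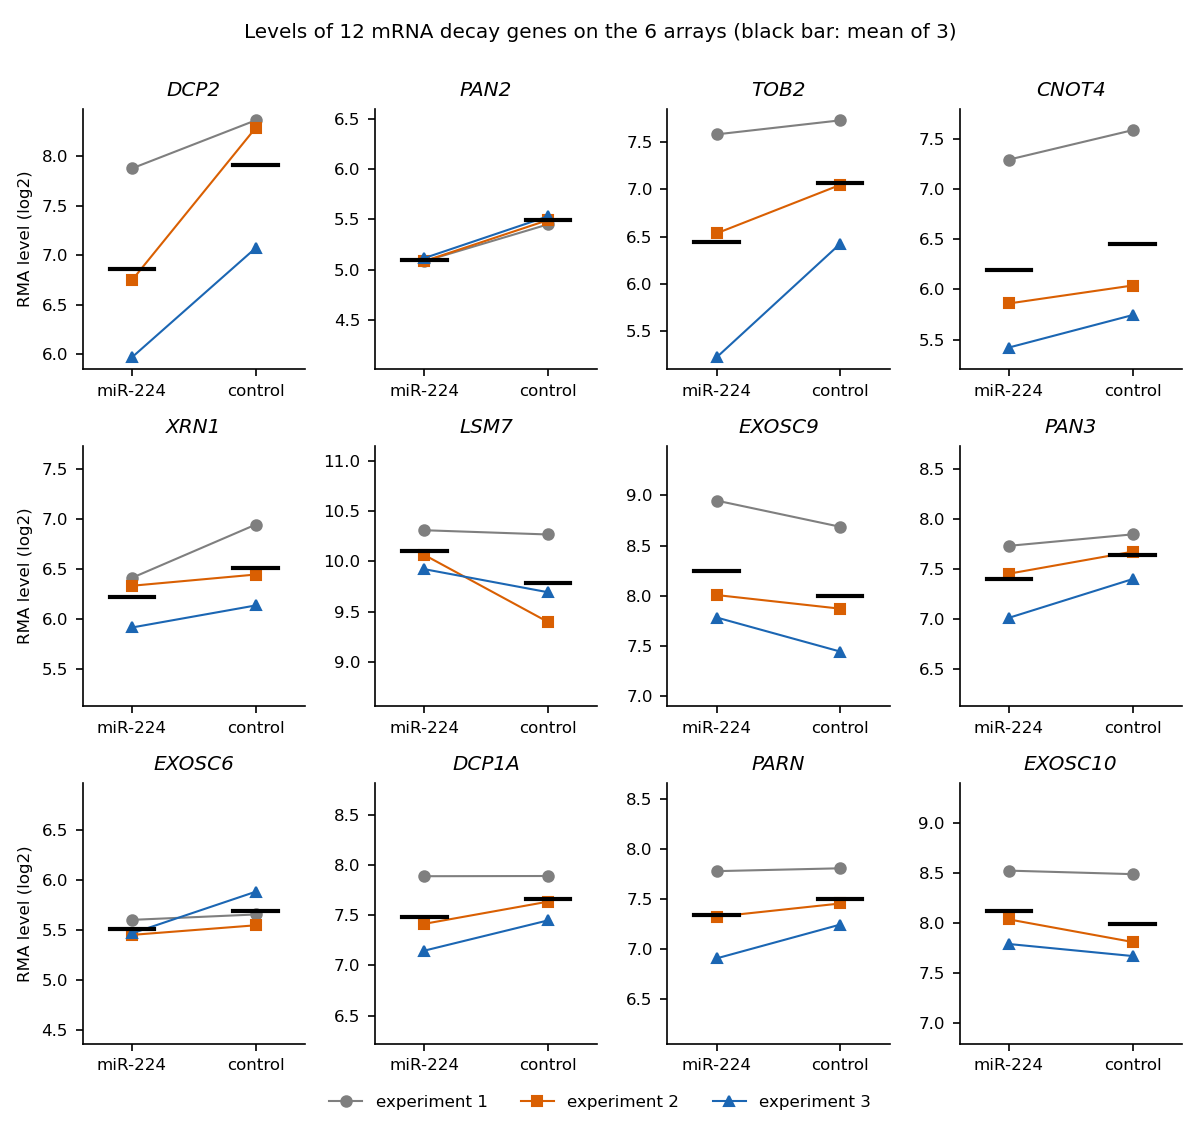
RMA log2 level (vertical axis, its range set for each panel) of 12 decay genes on the miR-224 and control arrays, with a line joining the arrays of an experiment and a black bar for the mean of 3 arrays. The lines of DCP2 are steepest in experiments 2 and 3, those of PAN2 coincide between 5.08 and 5.53, and in TOB2, CNOT4 and EXOSC9 the experiments lie further apart than the groups.

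CCR4-NOT, the main cytoplasmic deadenylase, is built on the scaffold CNOT1. Of its 11 subunits, 5 had a lower and 6 a higher mean, with a median of 0.02, and 0 passed the test. CNOT4, a ubiquitin ligase associated with the complex, read 7.29, 5.86 and 5.42 on the miR-224 arrays, against 7.59, 6.04 and 5.74 on the control arrays. It was lower by similar amounts in each experiment (-0.29, -0.18 and -0.32), although its level differed far more between experiments than between groups, and the mean was -0.27 ± 0.10 (SE, n = 3 pairs, limma adjusted p = 0.39). Its other 4 probe sets were dim and lay between -0.03 and 0.04, and the mean over all its probe sets was -0.05. The catalytic subunits stood at 0.13 ± 0.11 for CNOT6, -0.06 ± 0.11 for CNOT6L, 0.04 ± 0.12 for CNOT7 and 0.09 ± 0.10 for CNOT8, with 95% intervals that together ran from -0.30 to 0.38. CNOT1 (0.12 ± 0.12), CNOT2 (-0.07 ± 0.11), CNOT9 (-0.01 ± 0.10), which contacts TNRC6 proteins, and CNOT10 (-0.09 ± 0.11) and CNOT11 (0.02 ± 0.11), which form a module of their own, had both signs among the experiments. CNOT3 stood at 0.56, 0.27 and -0.25 in experiments 1, 2 and 3.

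The adaptors TOB1 and TOB2, antiproliferative proteins that join poly(A)-binding protein to CCR4-NOT, differed in direction. TOB2 (probe set 222243_s_at) read 7.58, 6.53 and 5.22 on the miR-224 arrays, against 7.73, 7.05 and 6.42 on the control arrays. It was lower in each experiment, by -0.15, -0.51 and -1.20, and the groups overlapped because its level also differed between experiments. The mean was -0.62 ± 0.18 (SE, n = 3 pairs, 95% interval -1.02 to -0.23, limma adjusted p = 0.26), and -0.33 without experiment 3. A second bright probe set of TOB2 stood at -0.01, -1.50 and -0.72 in experiments 1, 2 and 3, with a mean of -0.74. With experiments 2 and 3 alone TOB2 was lower by -0.86 at an adjusted p of 0.044, the lowest over the alternatives, which reached 0.9999 without the block. TOB1 had a mean of 0.28 ± 0.12, at 0.32, 0.52 and -0.007 in experiments 1, 2 and 3, and its second bright probe set gave 0.31. The difference between the TOB genes was not tested.

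PARN, a poly(A)-specific ribonuclease, read 7.78, 7.32 and 6.91 on the miR-224 arrays, against 7.80, 7.45 and 7.24 on the control arrays. It was lower in each experiment and most in experiment 3, with a mean of -0.17 ± 0.11 (SE, n = 3 pairs, limma adjusted p = 0.64) that was -0.08 without experiment 3. PABPC1, the main cytoplasmic poly(A)-binding protein, differed by 0.03 ± 0.10, and the suffix of its probe set, _x_at, marks probes that may also match other transcripts. UPF1, the helicase at the centre of nonsense-mediated decay, stood at 0.10, -0.29 and -0.23 in experiments 1, 2 and 3, and its second bright probe set was lower in each, with a mean of -0.35.

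The exosome degrades RNA from the 3′ end, and EXOSC10 is a catalytic subunit found mainly in the nucleus. Of its 10 genes listed, 7 had a higher and 3 a lower mean, with a median of 0.10, and 0 passed the test. EXOSC9, of the core ring, read 8.95, 8.01 and 7.78 on the miR-224 arrays, against 8.69, 7.87 and 7.44 on the control arrays. It was higher in each experiment, with a mean of 0.25 ± 0.11 (SE, n = 3 pairs, limma adjusted p = 0.45), and the groups overlapped. EXOSC10 read 8.52, 8.03 and 7.79 on the miR-224 arrays, against 8.48, 7.81 and 7.67 on the control arrays. It was higher in each experiment by a mean of 0.13 ± 0.10 (SE, n = 3 pairs, limma adjusted p = 0.72), which was 0.08 without experiment 2. EXOSC6, also of the core ring, was on the lower side and read 5.60, 5.45 and 5.47 on the miR-224 arrays, against 5.65, 5.55 and 5.88 on the control arrays. Its mean of -0.19 ± 0.11 (SE, n = 3 pairs, limma adjusted p = 0.60) came mainly from experiment 3 and was -0.07 without it, while its other bright probe sets gave -0.25 and -0.41. EXOSC1 (0.17 ± 0.11) and EXOSC8 (0.16 ± 0.11) were the next highest. EXOSC2, EXOSC3, EXOSC4, EXOSC5 and EXOSC7 lay between -0.08 and 0.12.

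For 35 of the 44 genes, the 95% interval of the difference lay within -0.5 to 0.5 on the log2 scale. The exceptions were DCP2, TOB2, PAN2, XRN1, PATL1, LSM2, LSM7, CNOT3 and TOB1. The share of all genes with an interval within these bounds was not computed. Against the miR-224 differences, the levels varied widely between experiments. The control arrays of the 3 experiments spanned more than the miR-224 difference in 40 of the 44 genes (90.9%, against 89.9% of all genes), with a median span of 0.57, and the exceptions were PAN2, DDX6, CNOT6 and EXOSC1. Averaged over both groups, experiment 1 was above experiments 2 and 3 in 31 of the 44 genes (70.5%, against 69.8% of genes at or above the median level), by as much as 1.69 for EXOSC3 and 1.68 for CNOT4, while CNOT8 lay lowest, at -1.31. TOB2 (1.35) and DCP2 (1.10) were among the genes that were higher in experiment 1, where both had their smallest miR-224 differences. Whether the low 5′ signal of that experiment has a part in this was not tested.

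The 44 genes had 112 probe sets, and 30 genes had several. A second probe set at or above the median level was present for 21 genes, with 31 such probe sets, of which 20 had the sign of the one used and 11 the opposite sign. In 11 of the 21 genes, among them TOB2, TOB1, DCP1A, EXOSC6, PATL1 and UPF1, every bright probe set had the same sign, and in 10, among them XRN1, at least 1 did not. DCP2 had no second bright one. Its dim probe sets stood at 0.12, -0.63 and -0.02, and the one at -0.63 was lower in each experiment, at -0.81, -0.75 and -0.35. With the mean of all its probe sets DCP2 stood at -0.40. The probe set used gave 0.02 for EXOSC7 where its other bright one gave -0.48, and 0.09 for CNOT8 where the other bright ones gave -0.09 and -0.33.

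**Figure D3:**
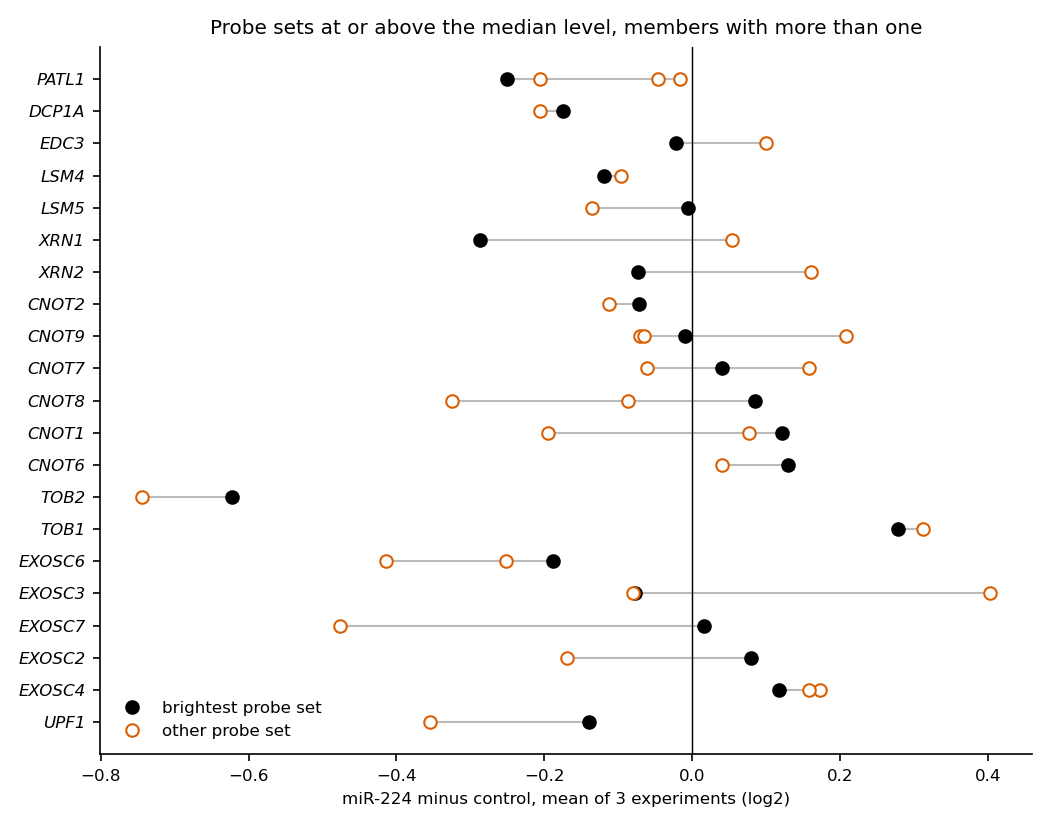
Mean log2 difference between miR-224 and control cells (horizontal axis) for every probe set at or above the median level, in the 21 decay genes with more than one. Filled points are the probe sets used and open points the others; the points of TOB2 lie together at -0.62 and -0.74, and those of EXOSC7, EXOSC3 and CNOT8 lie on both sides of 0.

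Further genes of these pathways were taken from 6 lists, with 79 of 90 genes measured. None of them passed the test, as limma called 0 of 79, and their median difference was 0.008. At an unadjusted p under 0.05 in limma, 8 were lower and 6 higher (10.1% and 7.59%, against 5.52% and 5.45% of all genes). Most of the 79 reached the median level, and over the 9888 genes that did so these backgrounds were 8.1% and 4.78%. Among P-body proteins, the paralogs LSM14A and LSM14B, which bind DDX6 and repress translation, differed in opposite directions. LSM14A read 8.98, 8.61 and 8.32 on the miR-224 arrays, against 8.42, 6.70 and 7.85 on the control arrays. It was higher in each experiment, by 0.99 ± 0.24 (SE, n = 3 pairs, limma adjusted p = 0.23), and by 0.52 without experiment 2. LSM14B read 4.87, 4.76 and 4.92 on the miR-224 arrays, against 5.05, 5.79 and 5.54 on the control arrays. All its miR-224 arrays lay below all control arrays, an order also found in other genes of these lists, among them ZFP36L1, and in 2.11% of all genes. The reverse order was found in ANGEL1 and in 4.16% of all genes. LSM14B was lower by -0.61 ± 0.15 (limma adjusted p = 0.24). LSM14B was -0.40 without experiment 2, and with experiments 2 and 3 alone it was lower at an adjusted p of 0.031, the lowest over the alternatives, which reached 0.9999 without the block. With the mean of its probe sets it was -0.15.

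Among the effectors of microRNA silencing, TNRC6C, one of the scaffold proteins that recruit the deadenylases, read 5.71, 5.53 and 4.95 on the miR-224 arrays, against 5.00, 4.28 and 4.52 on the control arrays. It was higher in each experiment, by 0.80 ± 0.15 (SE, n = 3 pairs, limma adjusted p = 0.16), but by 0.16 with the mean of its probe sets. TNRC6C reached the median level of all genes (4.75) only through the miR-224 cells, with a mean of 5.40 there and 4.60 in control cells, so its place among the genes named depended on the group in which it was high. AGO1, an Argonaute protein, stood at -0.08, -0.27 and -0.96 in experiments 1, 2 and 3. Its mean was -0.43 ± 0.16 (limma adjusted p = 0.37), -0.17 without experiment 3 and -0.15 with the mean of its probe sets. Of the proteins that bind AU-rich elements, ZFP36L1, which recruits CCR4-NOT, was lower in each experiment (-0.31, -0.46 and -0.55) with a mean of -0.44 ± 0.11 (limma adjusted p = 0.23), and -0.12 with the mean of its probe sets. RC3H2, which encodes a Roquin protein that destabilises mRNAs, was higher almost entirely in experiment 2 (0.005, 0.99 and 0.21). In the nonsense-mediated decay list, the translation termination factor ETF1 was higher by 0.45 ± 0.12 (limma adjusted p = 0.26) and by 0.26 with the mean of its probe sets, and SMG5 was lower by -0.35 ± 0.15, with -0.79 in experiment 3, by -0.13 without that experiment and by -0.20 with the mean of its probe sets. Among deadenylase partners, ANGEL2 had a mean of -0.32 ± 0.12, which was -0.21 without experiment 3 and -0.15 with the mean of its probe sets. ANGEL1 had a mean of 0.25 ± 0.11, and 0.12 with the mean of its probe sets. Among exosome cofactors, TENT4B, a poly(A) polymerase that tags RNAs for decay, had a mean of -0.26 ± 0.11, and DIS3L, the catalytic subunit of the cytoplasmic exosome, of -0.17 ± 0.12. DIS3L stood at -0.02, -0.43 and -0.06 in experiments 1, 2 and 3, and its mean was -0.04 without experiment 2.

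**Figure D4:**
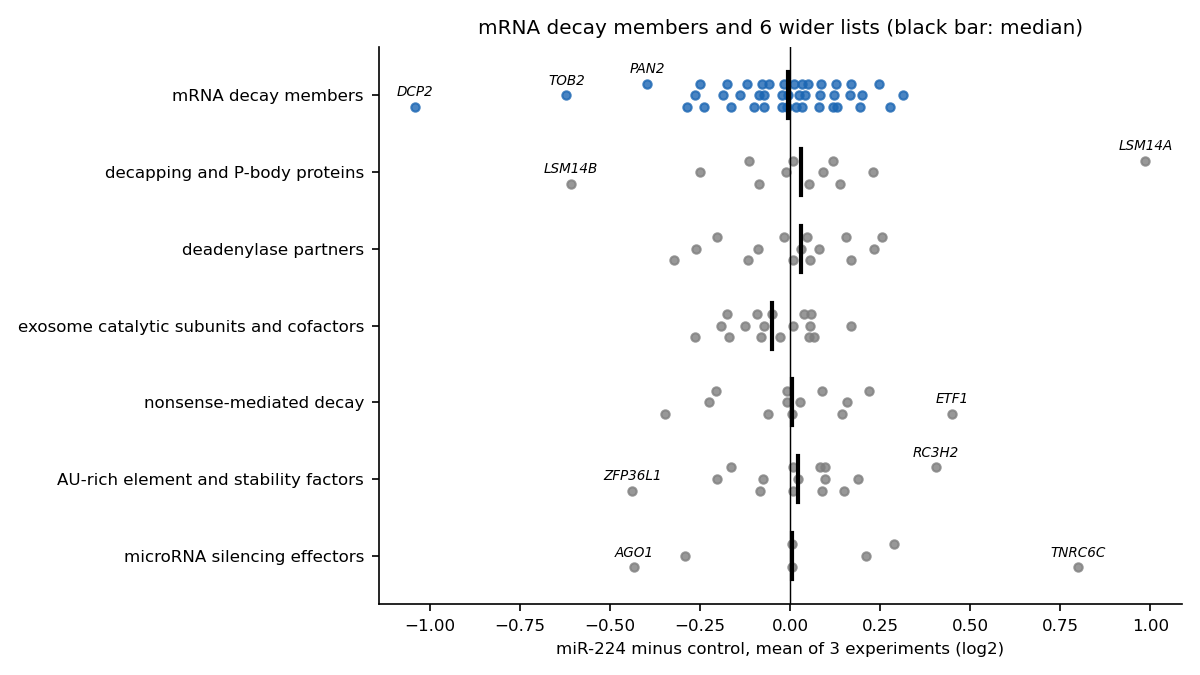
Mean log2 difference between miR-224 and control cells (horizontal axis) for the 44 decay genes and for the 6 further lists, with a point for each gene, spread vertically for legibility, and a black bar for each median. The medians lie between -0.05 and 0.03, and LSM14A at 0.99, TNRC6C at 0.80 (its control mean, 4.60, is under the median of all genes) and DCP2 at -1.04 lie furthest from 0.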

How the data were processed

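The deposited table holds log2 expression values that the authors made with RMA and Partek, per the submitters' processing notes, with settings not given in the sources used here. The log base, not stated, was taken as 2. RMA brings the arrays to one distribution, so only differences relative to most genes are visible. Of 54675 probe sets, the 41091 with a single gene symbol were used. Left out were 11721 with no listed symbol, 1801 with several symbols and 62 controls. Differences were fitted with limma 3.58.1 (R 4.3.3), with experiment as a block and 2 residual degrees of freedom, over 19775 genes. Tests were two-sided, with Benjamini-Hochberg adjustment over all of them and a threshold of 0.05, and standard errors are moderated. The pairing comes from the series, which describes pairs from independent experiments. After subtraction of group means, arrays of equal number correlated across genes at 0.585 to 0.855, and others at -0.753 to 0.257. The subtraction makes the deviations of a group sum to 0, which pushes the others down when equal numbers correlate, so this gap is partly built in. Between experiments 2 and 3, unequal numbers correlated at 0.172 and 0.257, against 0.585 and 0.771 for equal ones. Members and lists were chosen with earlier results of these data known. The 12 genes given array by array had the smallest unadjusted p among decay genes with one sign in every experiment and at or above the median level. PAN2 was to be included whatever its rank, because an earlier result of these data had named it, and it was among the 12 by rank. From each further list, the 2 genes with the smallest p at or above that level were named. Plots were made with matplotlib 3.10.9 under Python 3.11.15.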

Additional observations from a re-analysis of the deposited data

How the results depend on the processing

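The absence of calls depended on the variance model and on experiment 1. Among 10 alternatives, the count of all genes called was 0 to 174 with single experiments left out, 56 with an intensity trend and robust variances, 4 with array weights, and 0 in the others. The count of decay genes called was 0 to 2 with single experiments left out (DCP2 and TOB2 without experiment 1) and 1 with the intensity trend and robust variances (DCP2). With single experiments left out, and so counted over the other 2, 11 to 20 decay genes were lower and 8 to 15 higher in every experiment. The matching shares over all genes were not computed, so these counts are not read against a background. Without the replicate block, limma called 0 of 44 decay genes and 0 of all genes. At an unadjusted p under 0.05 there were 1 and 313, against 7 and 2169 with the block. As neither fit called a gene, this comparison cannot show whether the block affects calls. The alternatives that called genes were not run without it. The median of the decay genes lay between -0.04 and 0.04 under the alternatives. The 12 genes given array by array kept their sign in all 120 values, and so did the 12 genes of the further lists in 120. Both sets had one sign in every experiment, the first by the rule that chose it. Leaving out an experiment could therefore not turn their sign, and some alternatives change only the variance. These counts are thus no test of the genes. Among the other 32 decay genes, 27 of which had both signs among the experiments, 23 turned sign in at least 1 of the alternatives, in 35 of 320 values. Leaving out 1 array of a pair removes its partner from the blocked difference, so pairs were left out. Signal near the background limits dim probe sets, and the depth of an array is not counted in reads.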
